A study of Homo sapiens with 12 samples.

Results

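The genes described here encode the nuclear-encoded subunits of the respiratory chain and ATP synthase, measured by RNA sequencing in SW1783 cells, a human astrocytoma line. They are the protein-coding genes whose symbol starts with NDUFA, NDUFB, NDUFC, NDUFS, NDUFV or UQCR, is SDHA to SDHD, or starts with COX4 to COX8 or ATP5. The rule used names and no measured value, and it found 98 of the 60675 genes in the count table. Of these, 88 were taken as subunits, 8 were NDUFAF assembly factors of complex I, and 2 were read-through genes that join a member to its neighbour. Of the 98, 97 had at least 1 count and 94 received an adjusted p at the high dose.

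The cells were kept for 24 h with a hot water extract of Aconitum carmichaeli Debeaux (ACD). Doses of 20, 100 and 500 µg/mL made up the low, medium and high dose groups. The vehicle group received PBS with 2% DMSO, the liquid in which the study's methods also dissolved the extract. The 2% is the share in this liquid and not in the culture medium. Each group had 3 libraries, and no label says whether they came from separate cultures, so p-values measure the spread between these libraries, which may be technical. SW1783 is a single tumour line grown in dishes. The treatment protocol in the labels describes another herb, Poria cocos, while the titles and treatment labels name ACD.

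Total counts per library lay between 18863863 and 24200576. Astrocyte markers were mostly near absent: GFAP did not pass 6 counts, S100B did not pass 5, ALDH1L1 did not pass 2 and AQP4 had 0 counts in every library, whereas SOX9 and VIM were well detected. SLC1A3, a glial glutamate transporter, lay at a mean normalised count of 690 in vehicle and 126 at the high dose. Some markers of other cell types also moved with dose. From vehicle to high dose the mean normalised count of SNAP25 (neuron) went from 704 to 167, that of SYT1 (neuron) from 638 to 868 and that of PTPRC (leukocyte) from 275 to 84.8. The summed level of the 3 neuron markers was 1311 to 1372 in vehicle, 1103 to 1241 at the low dose, 1068 to 1081 at the medium dose and 998 to 1064 at the high dose. For the 3 leukocyte markers it was 259 to 286, 254 to 273, 158 to 192 and 73 to 109. RBFOX3, AIF1, CX3CR1 and the 4 intestinal markers EPCAM, CDX2, VIL1 and KRT20 were at or near 0. The part of these markers in the changes of the respiratory genes was not tested.

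The respiratory chain sits in the inner mitochondrial membrane. Complex I takes electrons from NADH and complex II takes them from succinate, ubiquinone carries them to complex III, cytochrome c carries them to complex IV, and complex IV hands them to oxygen. Complexes I, III and IV pump protons, and complex V (ATP synthase) uses their return to make ATP. Complex II is encoded wholly in the nucleus, while each of the others combines nuclear-encoded subunits with a few made from mitochondrial DNA, so their assembly needs both genomes. Astrocytes are known for a high rate of glycolysis beside a working chain.

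At the high dose most respiratory genes that changed were lower than in vehicle, by small amounts. Called means a Benjamini-Hochberg adjusted p under 0.05 in the Wald test of DESeq2, and a differentially expressed gene (DEG) also had an absolute fold change over 1.5. Of 94 members tested, 42 were called lower, beside 22.6% of all genes tested, and 8 were called higher, beside 23.9%. The median log2 fold change over the 91 members whose mean normalised count reached 10 was -0.14, and over all genes with such a mean it was 0.00. Among protein-coding genes with a mean of at least 100, where the test has more power, 31.6% were lower and 36.2% higher; of the 88 members with that mean, 47.7% were lower and 7.95% higher. Members that were DEGs numbered 2, ATP5MC3 (lower) and NDUFA4L2 (higher), beside 18.2% of all genes tested, and NDUFB3 (lower) became the third in 13 of 23 alternatives. When the vehicle library 2 was left out, 5 members were higher in place of 8. In bulk RNA, a smaller share of cells that express a gene and less RNA per cell cannot be told apart.

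At the medium dose 9 of 89 members tested were lower, beside 14.5% of all genes, 5 were higher, beside 15.1%, and none was a DEG, beside 3.81%. The lower members were NDUFA2, NDUFV2, SDHA, ATP5IF1, ATP5F1A, ATP5F1C, ATP5PB, ATP5PF and ATP5MF, and the higher members were NDUFV1, SDHB, COX5A, COX7A2L and ATP5MC2. The counts moved with single libraries: 8 members were called without vehicle library 1, 9 without medium dose library 2 and 8 without medium dose library 3, against 14 with all. Lower members numbered 5 without any of these 3 libraries in turn, and higher members 3 without vehicle library 1 or medium dose library 3. The comparisons of each dose with vehicle share the vehicle libraries, so the values of both doses are given side by side for the members described.

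At the low dose DESeq2 called 0 of 84 members higher, beside 2.05% of all genes, and 0 lower, beside 1.24%. There 6 members had an unadjusted p under 0.05, and edgeR's quasi-likelihood test also called 0. Without vehicle library 3 the call of 1 member, UQCRFS1, passed the threshold. Independent filtering left genes with a mean under 263 without an adjusted p at this dose, so 14 members, ATP5MC3 and NDUFA4L2 among them, were not tested.

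Between the high and medium doses, 34 of 91 members were lower at the high dose, beside 19.8% of all genes, and 1 was higher (COX7A2L), beside 21.1%. ATP5MC3 was the sole DEG, beside 10.2%. Between the medium and low doses, 2 of 89 members were higher (ATP5MC2 and COX7A2L), beside 9.29%, and 3 were lower (ATP5IF1, ATP5F1C and UQCRB), beside 9.58%. These 5 calls fell to 3 without medium dose library 1, to 2 without medium dose library 2, to 1 without medium dose library 3, and to 3 without low dose library 1 or low dose library 2. Libraries of these 2 doses with the same replicate number deviated together, and with the number as a block 2 calls were left, ATP5MC2 (adjusted p = 0.0075) and ATP5IF1 (adjusted p = 0.0255). A likelihood ratio test over all groups called 45 of 94 members, beside 45.8% of all genes, so the share of members that differed among groups was near the background.

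**Figure D1:**
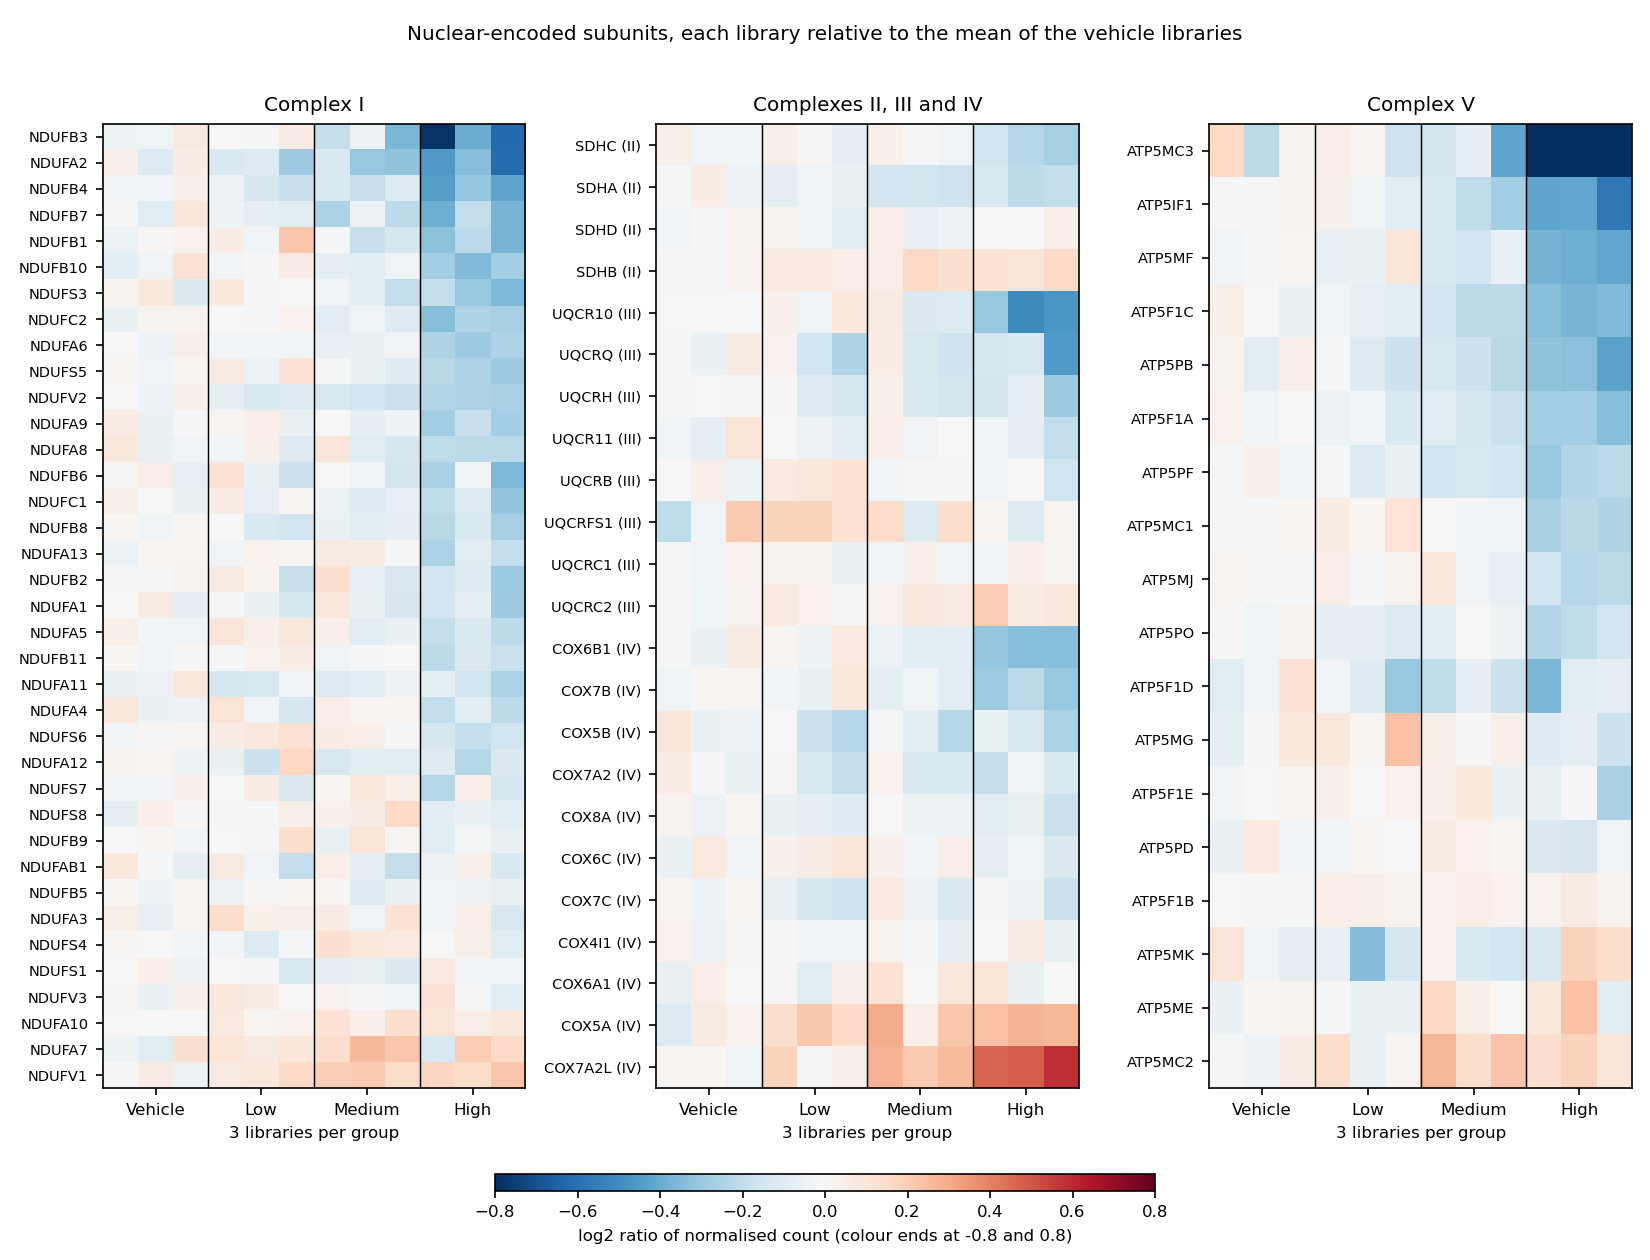
Each cell is the log2 ratio of a library's normalised count to the mean of the 3 vehicle libraries, for subunits whose mean normalised count reached 100, grouped by complex and sorted by the high dose change. Columns are the 12 libraries by group; blue is lower and red is higher than vehicle, and colours end at -0.8 and 0.8. The high dose columns are the bluest for most genes, with COX7A2L the reddest row and ATP5MC3 past the end of the scale.

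Promoters of 78 of the 98 members were matched by symbol in RefSeq sequences of GRCh38.p14, as 96 stretches of 300 bases from 250 before to 50 after a transcription start. The 3 motifs searched, on both strands, are known from nuclear respiratory genes and were chosen after the expression values were seen. The NRF1 core, GCGCANGCG, was in 25 of the 96 promoters (26.0%), beside 13.4% of promoters of protein-coding genes with a mean of at least 100 and 7.52% of all 35116 promoters. The ETS motif, CCGGAAG, bound by GABPA among others, was also in 26.0%, beside 18.0% and 10.3%. The CCAAT box, CCAAT, was in 36.5%, beside 34.9% and 34.6%. The 3 motifs differ in letters but can overlap in place. The NRF1 core was in 34.3% of the 35 matched members that were lower at the high dose and in 33.3% of the 36 that were not called. The ETS motif was in 25.7% and 36.1% of these members, and CCAAT in 37.1% and 36.1%. Of the 7 matched members that were higher, 1 held the NRF1 core, 1 the ETS motif and 4 CCAAT. A match is a string of letters and not a known binding site.

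Promoters are printed for 5 members: UQCR10, COX6B1 and ATP5MC1 as called lower at the high dose in complexes III, IV and V, SDHD as a member near 0, and COX7A2L as the called rise with the smallest adjusted p. Capitals mark the motifs on either strand. UQCR10 lies at chr22:29767119-29767418 on the plus strand and holds 1 NRF1 core and 1 CCAAT. COX6B1 lies at chr19:35648073-35648372 on the plus strand and holds 1 ETS motif and 2 CCAAT boxes. ATP5MC1 lies at chr17:48892537-48892836 on the plus strand and holds 4 CCAAT boxes. SDHD lies at chr11:112086623-112086922 on the plus strand and holds an NRF1 core that reads on both strands, and 1 ETS motif. COX7A2L has 2 starts in RefSeq; the one shown lies at chr2:42361168-42361467 on the minus strand and holds 1 CCAAT, and the other holds none of the 3 motifs.
UQCR10: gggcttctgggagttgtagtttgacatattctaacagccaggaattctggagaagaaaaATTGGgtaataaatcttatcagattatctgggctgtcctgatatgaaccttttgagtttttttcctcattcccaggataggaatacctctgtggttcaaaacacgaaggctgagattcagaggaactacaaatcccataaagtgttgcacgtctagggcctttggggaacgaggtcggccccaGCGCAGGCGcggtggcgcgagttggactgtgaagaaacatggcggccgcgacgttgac
COX6B1: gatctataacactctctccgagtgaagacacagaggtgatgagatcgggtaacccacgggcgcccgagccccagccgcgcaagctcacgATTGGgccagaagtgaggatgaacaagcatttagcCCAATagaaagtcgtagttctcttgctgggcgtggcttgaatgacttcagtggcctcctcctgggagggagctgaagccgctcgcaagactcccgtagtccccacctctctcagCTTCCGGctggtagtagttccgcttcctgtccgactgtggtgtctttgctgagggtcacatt
ATP5MC1: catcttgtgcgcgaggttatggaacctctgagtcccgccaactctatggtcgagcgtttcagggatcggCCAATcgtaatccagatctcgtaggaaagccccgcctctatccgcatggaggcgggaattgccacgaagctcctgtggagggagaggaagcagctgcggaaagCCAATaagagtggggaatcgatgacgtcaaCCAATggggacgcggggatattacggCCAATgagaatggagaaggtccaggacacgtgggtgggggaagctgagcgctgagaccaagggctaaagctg
SDHD: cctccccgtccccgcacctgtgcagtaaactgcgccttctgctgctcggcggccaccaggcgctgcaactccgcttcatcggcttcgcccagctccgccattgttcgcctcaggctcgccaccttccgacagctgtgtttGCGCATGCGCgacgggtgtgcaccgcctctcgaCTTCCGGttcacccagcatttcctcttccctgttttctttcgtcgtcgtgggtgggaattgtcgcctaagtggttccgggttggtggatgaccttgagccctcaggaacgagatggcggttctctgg
COX7A2L: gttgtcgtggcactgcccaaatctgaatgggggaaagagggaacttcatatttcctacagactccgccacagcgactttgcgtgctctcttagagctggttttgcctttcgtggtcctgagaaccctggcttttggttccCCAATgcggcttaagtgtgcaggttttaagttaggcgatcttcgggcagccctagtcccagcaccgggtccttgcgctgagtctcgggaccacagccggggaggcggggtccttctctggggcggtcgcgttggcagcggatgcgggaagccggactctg

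Complex I, the NADH dehydrogenase, was the largest group, with 39 members under its symbols. At the high dose 24 were lower and 2 higher, beside 22.6% and 23.9% of all genes tested. The median log2 fold change was -0.17. At the medium dose 2 were lower and 1 higher, beside 14.5% and 15.1%, with a median of -0.04. The core subunits, which as a group carry the flavin and the iron-sulphur clusters, and the supernumerary subunits, which surround and stabilise them, gave different counts. Leaving aside NDUFA4 and NDUFA4L2, of the 7 core subunits 2 were lower (NDUFS3 and NDUFV2) and 1 higher (NDUFV1), with a median of -0.08. Of the 30 supernumerary subunits, 21 were lower and none higher, with a median of -0.18. Whether the 2 kinds differ was not tested.

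The NDUFB subunits belong to the membrane arm of complex I. At the high dose 9 of 11 were lower, beside 22.6% of all genes tested. For all 11 the log2 fold change was negative, from -0.58 to -0.04. NDUFB3 (chr2:201071433-201085750) had normalised counts of 343, 345 and 372 in vehicle, 354, 351 and 370 at low dose, 310, 343 and 274 at medium dose, and 205, 269 and 230 at high dose. Every high dose library lay below every other library. At high dose the log2 fold change was -0.58 ± 0.12 (SE; adjusted p = 1.79e-06), the largest fall in complex I and just short of the fold that makes a DEG, and at the medium dose it was -0.19 (adjusted p = 0.198). Of its exon bases, 11.8% overlap a gene on the opposite strand. NDUFB4 and NDUFB10, both supernumerary subunits of this arm, were also lower, at -0.39 (adjusted p = 1.37e-08) and -0.30 (adjusted p = 9.49e-07). NDUFB5 and NDUFB9 were not called, at -0.04 and -0.05.

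Of the 12 NDUFA genes placed among the supernumerary subunits, 8 were lower at the high dose, beside 22.6% of all genes tested. NDUFA2 (chr5:140638740-140647771), a supernumerary subunit of the matrix arm, had normalised counts of 717, 646 and 725 in vehicle, 641, 647 and 569 at low dose, 639, 565 and 558 at medium dose, and 509, 551 and 455 at high dose. High dose libraries lay below all others, and medium dose libraries below those of vehicle. It stood at a log2 fold change of -0.25 at the medium dose (adjusted p = 0.0204) and -0.46 ± 0.09 at the high dose (SE; adjusted p = 8.89e-07). The medium dose call was lost without vehicle library 1 or 3 or medium dose library 2 or 3, with adjusted p between 0.0974 and 0.143. Of its exon bases, 12.1% overlap a gene on the opposite strand. NDUFC2, NDUFA6 and NDUFS5 were lower by similar amounts at the high dose, at -0.28, -0.26 and -0.26.

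Among the core subunits, NDUFV1 and NDUFV2 lie side by side in the NADH-oxidising tip of complex I and were called in opposite directions. NDUFV1 (chr11:67605653-67612554), which binds NADH and the flavin, had normalised counts of 1220, 1291 and 1193 in vehicle, 1296, 1308 and 1380 at low dose, 1416, 1426 and 1365 at medium dose, and 1390, 1366 and 1441 at high dose. All 9 dosed libraries lay above those of vehicle. The log2 fold change was 0.18 at both the medium (adjusted p = 0.0035) and high dose (adjusted p = 0.00216). NDUFV2 (chr18:9102630-9134345), an iron-sulphur subunit, had normalised counts of 1258, 1211 and 1291 in vehicle, 1192, 1154 and 1163 at low dose, 1145, 1125 and 1106 at medium dose, and 1064, 1055 and 1048 at high dose. No 2 groups overlapped, and the order followed the dose. The log2 fold change was -0.15 at the medium dose (adjusted p = 0.0155) and -0.25 at the high dose (adjusted p = 1.46e-05). The medium dose call was lost without vehicle library 1 or 3 or medium dose library 2 or 3, with adjusted p between 0.0685 and 0.11. It was also lost in the fit with a replicate block (adjusted p = 0.0502). Same-strand genes overlap 28.4% of the exon bases of NDUFV2 and 8.36% of those of NDUFV1.

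NDUFS3, a core subunit of the arm that faces the matrix, fell by 0.29 on the log2 scale at the high dose (adjusted p = 0.000159), from 862 to 992 in vehicle to 729 to 816. The core subunits NDUFS1 (0.01), NDUFS7 (-0.10) and NDUFS8 (-0.08), which carry iron-sulphur clusters, were not called. With library totals outside chromosome M as the scale NDUFS8 was called, at -0.13 (adjusted p = 0.0292). NDUFS8 alone of these 3 was called lower than at the medium dose, at -0.16 (adjusted p = 0.00435). NDUFS1 and NDUFS7 overlap opposite-strand genes over 11.6% and 51.5% of their exon bases.

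NDUFA4 and NDUFA4L2 carry complex I symbols, but NDUFA4 is a subunit of complex IV and NDUFA4L2 is its paralog, known as a target of hypoxia-inducible factor. NDUFA4L2 (chr12:57234903-57240715) was scarce, with 3 to 29 counts per library. Its normalised counts were 3.07, 11.4 and 7.29 in vehicle, 7.70, 12.2 and 10.5 at low dose, 11.6, 26.1 and 27.3 at medium dose, and 22.0, 26.1 and 25.3 at high dose. High dose libraries lay above all vehicle and low dose libraries, and medium dose library 1 lay near the latter. At high dose the log2 fold change was 1.73 ± 0.52 (SE; adjusted p = 0.00222), and at the medium dose 1.57 with no adjusted p. NDUFA4 had 3439 to 3799 in vehicle and 3083 to 3344 at the high dose, a log2 fold change of -0.16 (adjusted p = 0.00596; 0.0796 without vehicle library 1). Of the 7 other hypoxia targets listed, 4 were lower at the high dose (EGLN3 at -2.72, CA9 at -0.67, BNIP3 at -0.64 and PDK1 at -0.50) and 3 higher (VEGFA at 0.97, LONP1 at 1.15 and ADM at 1.35), so NDUFA4L2 did not share a direction with all of them.

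The 8 NDUFAF genes, which help to assemble complex I and leave it when it is complete, gave other counts than its subunits at the high dose. Of these 8, 1 was higher and none was lower, beside 23.9% and 22.6% of all genes tested. Their median log2 fold change was 0.06. NDUFAF2, an assembly chaperone related to NDUFA12, had normalised counts of 630, 633 and 619 in vehicle and 727, 742 and 805 at the high dose, with a log2 fold change of 0.27 (adjusted p = 0.00145). The vehicle and high dose libraries did not overlap. Of 11 further assembly factors of complex I outside the rule, 4 were higher (TMEM186 at 0.42, ECSIT at 0.37, FOXRED1 at 0.27 and TMEM126B at 0.27), 1 was lower (COA1 at -0.13), and the median was 0.05. The difference between subunits and assembly factors was not tested.

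Complex II, succinate dehydrogenase, is shared with the citric acid cycle and has 4 subunits. SDHA, the flavoprotein that oxidises succinate, had normalised counts of 2479, 2608 and 2422 in vehicle and 2293, 2168 and 2186 at the high dose, and the 2 groups did not overlap. Its log2 fold change was -0.16 at the medium dose (adjusted p = 0.00126) and -0.18 at the high dose (adjusted p = 6.35e-05). Same-strand genes overlap 21.7% of the exon bases of SDHA. Pseudogenes named after SDHA held 22.9% of the counts of gene and pseudogenes together, so reads shared among them make this value uncertain, although adding the pseudogene counts left the call in place. SDHC, which anchors the enzyme in the membrane, had 2268, 2155 and 2167 in vehicle, and 1969, 1874 and 1824 at the high dose, below every other library. It fell by 0.22 on the log2 scale (adjusted p = 8.54e-06) at the high dose, and its log2 fold change was 0.00 at the medium dose.

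SDHB, the iron-sulphur subunit, went the other way. It had 1469, 1478 and 1514 in vehicle, 1571, 1572 and 1542 at low dose, 1543, 1660 and 1627 at medium dose, and 1609, 1598 and 1662 at high dose. All dosed libraries lay above those of vehicle, with a log2 fold change of 0.13 at the high dose (adjusted p = 0.0183) and 0.12 at the medium dose (adjusted p = 0.0489). With library totals outside chromosome M as the scale the high dose adjusted p was 0.179 and the medium dose one 0.135, and leaving out vehicle library 1 or 2 or high dose library 3 gave 0.0772, 0.0766 and 0.0999 at the high dose. The medium dose call was also lost with TMM size factors (adjusted p = 0.053), size factors from other protein-coding genes (0.0512), no independent filtering (0.106), the replicate block (0.115) and only the 2 groups compared (0.0912). It was lost too with each library left out in turn, medium dose library 1 excepted. SDHD, the other membrane anchor, stayed between 1102 and 1224 in all 12 libraries, with a log2 fold change of 0.02 (adjusted p = 0.852). Thus the 4 subunits of 1 complex included members called in each direction.

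Complex III, the cytochrome bc1 complex, had 9 members, of which 2 were lower and 1 higher at the high dose and none was called at the medium dose. Beside the 22.6% of all genes lower and 23.9% higher, its share of falls was near the background and its share of rises below it. Among protein-coding genes with a mean of at least 100, 31.6% were lower and 36.2% higher. UQCR10 (chr22:29767369-29770413), a small supernumerary subunit, had normalised counts of 1796, 1798 and 1789 in vehicle, 1842, 1752 and 1905 at low dose, 1881, 1654 and 1663 at medium dose, and 1456, 1266 and 1301 at high dose. The high dose libraries were the lowest, with no overlap with any other. Its change was -0.42 ± 0.06 on the log2 scale at the high dose (SE; adjusted p = 8.93e-12) and -0.05 at the medium dose (adjusted p = 0.556), and -0.37 between the 2 doses (adjusted p = 4.95e-09). Of its exon bases, 24.5% overlap an opposite-strand gene. UQCRH, the hinge protein between cytochrome c1 and cytochrome c, fell by 0.17 (adjusted p = 0.0124; 0.142 without high dose library 3), and UQCRQ stood at -0.23 (adjusted p = 0.0593). UQCRQ was called lower by edgeR (adjusted p = 0.00787), with the replicate block (0.00112), with library totals outside chromosome M as the scale (0.0171), after filterByExpr (0.0484) and without high dose library 1 or 2, medium dose library 1 or low dose library 1 (0.0356 to 0.0495).

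Among the catalytic and core subunits of complex III, UQCRC1, a core protein, stayed between 3739 and 4027 in all libraries, with a log2 fold change of 0.02 (adjusted p = 0.713). UQCRFS1, the Rieske iron-sulphur protein, had 1509, 1700 and 2008 in vehicle, a spread that covered all 9 dosed libraries, and 1761, 1615 and 1763 at the high dose. UQCRC2, the other core protein, was higher, at 0.11 (adjusted p = 0.0236), but not with library totals outside chromosome M as the scale (adjusted p = 0.232), nor with only the 2 groups compared (0.0514), nor without vehicle library 2 (0.136) or high dose library 1 (0.206). UQCRHL, a near copy of UQCRH, had 32 to 75 counts and a log2 fold change of 0.02. CYC1, the cytochrome c1 subunit outside the naming rule, and CYCS, cytochrome c itself, were both higher, at 0.18 (adjusted p = 0.00419) and 0.17 (adjusted p = 6.37e-06).

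Complex IV, cytochrome c oxidase, had 17 members under COX symbols, of which 14 were tested at the high dose. Of these, 3 were lower, a share near the 22.6% of all genes, and 2 higher, below the 23.9%. Protein-coding genes with a mean of at least 100 stood at 31.6% lower and 36.2% higher. COX6B1, which faces the intermembrane space, had normalised counts of 2220, 2164 and 2352 in vehicle, 2283, 2180 and 2372 at low dose, 2177, 2098 and 2119 at medium dose, and 1809, 1775 and 1774 at high dose. High dose libraries were below all others, with a log2 fold change of -0.33 ± 0.05 (SE; adjusted p = 4.76e-12), and the medium dose value was -0.07 (adjusted p = 0.218). COX7B, another small subunit, fell by 0.27 (adjusted p = 1.42e-07), from 1912, 1976 and 1986 in vehicle to 1606, 1687 and 1585, again with no overlap with any other library. COX8A, a subunit of the membrane part, fell by 0.11 (adjusted p = 0.0174). That call was lost without vehicle library 1 or 3 or high dose library 3, with adjusted p between 0.0755 and 0.178. Same-strand genes overlap 35.4% of the exon bases of COX8A. COX4I1, a subunit that takes part in regulation by ATP, stayed between 2520 and 2769, with a log2 fold change of 0.00 (adjusted p = 0.986).

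The largest called rise among members with a mean of at least 100 was that of COX7A2L (chr2:42333546-42425088), also known as SCAF1, a protein related to COX7A2 that joins complexes III and IV into a supercomplex. Its normalised counts were 1063, 1062 and 1027 in vehicle, 1191, 1044 and 1082 at low dose, 1275, 1213 and 1252 at medium dose, and 1453, 1468 and 1580 at high dose. High dose libraries lay above all others, and medium dose libraries above those of vehicle and low dose. Relative to vehicle, the log2 values were 0.07 at low dose, 0.25 at medium dose (adjusted p = 0.000292) and 0.51 ± 0.06 at high dose (SE; adjusted p = 1.86e-17), under the fold that makes a DEG. Against the medium dose, the high dose value was higher by 0.27 (adjusted p = 1.96e-05). COX5A, which lies on the matrix side of the enzyme, had 1034, 1170 and 1142 in vehicle and 1310, 1347 and 1342 at the high dose, at 0.26 (adjusted p = 0.000218). Its partner COX5B was not called, at -0.14.

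Isoform pairs of complex IV were uneven in level. COX4I2, the isoform linked to low oxygen, had 0 counts in all 12 libraries, which allows up to 3 counts, or 0.124 to 0.159 CPM, for counting error only. COX6A2 and COX8C, isoforms of muscle and testis, did not pass 1 count in any library. COX7A1, the muscle isoform, had 1 to 7 counts and COX7B2 1 to 6. COX6B2, the testis isoform, had 5 to 21 counts and was at 0.66 at the high dose (adjusted p = 0.372). The ubiquitous forms COX6A1 and COX7A2 were not called at the high dose, at 0.02 and -0.11 (adjusted p = 0.856 and 0.127). COX7A2 was called lower with library totals outside chromosome M as the scale (-0.16, adjusted p = 0.017) and without high dose library 2 (-0.16, adjusted p = 0.0395). The scarce isoforms were too low to compare with their ubiquitous partners between doses.

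Complex V, ATP synthase, had 19 members, of which 18 were tested. At the high dose 10 were lower and 1 higher, beside 22.6% and 23.9% of all genes tested. The median log2 fold change was -0.20, the lowest of the 5 complexes. At the medium dose 6 were lower and 1 higher, beside 14.5% and 15.1%, with a median of -0.06. The membrane ring that turns with the protons is built from copies of subunit c, and ATP5MC1, ATP5MC2 and ATP5MC3 encode the same mature subunit c behind different import signals. Per kilobase of canonical transcript, vehicle cells held 3645 normalised counts of ATP5MC2, 2381 of ATP5MC1 and 81.5 of ATP5MC3. Which transcripts the cells used was not measured, and the canonical transcript of ATP5MC3 is longer, at 2587 bases, than those of ATP5MC1 and ATP5MC2, at 646 and 632.

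ATP5MC3 (chr2:175176258-175181710) was the member that fell most. Its normalised counts were 236, 181 and 215 in vehicle, 218, 214 and 188 at low dose, 190, 200 and 157 at medium dose, and 109, 99.1 and 107 at high dose. High dose libraries were below all others, and the other groups overlapped. On the log2 scale it changed by -1.01 ± 0.15 at the high dose (SE; adjusted p = 3.51e-10), -0.21 at the medium dose (adjusted p = 0.305), and -0.80 between high and medium dose (adjusted p = 1.62e-06). Over all alternatives and left-out libraries the high dose value stayed between -1.11 and -0.92.

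ATP5MC1 (chr17:48892765-48895871) had 1530, 1528 and 1556 in vehicle, 1611, 1552 and 1662 at low dose, 1538, 1517 and 1505 at medium dose, and 1279, 1316 and 1300 at high dose. Against vehicle it was called lower at the high dose alone, at -0.24 ± 0.05 (SE, adjusted p = 1.9e-06), with no overlap with other groups. ATP5MC3 too was called at the high dose and not at the medium dose, but it was not tested at the low dose. ATP5MC2 (chr12:53632726-53677408) had 2278, 2236 and 2397 in vehicle, 2537, 2212 and 2334 at low dose, 2766, 2542 and 2695 at medium dose, and 2532, 2622 and 2465 at high dose. It was higher, at 0.21 at the medium dose (adjusted p = 0.000246) and 0.14 at the high dose (adjusted p = 0.0133), although the high dose call was lost with library totals outside chromosome M as the scale (adjusted p = 0.134) and without vehicle library 2 or high dose library 2 (0.0863 and 0.0845). The summed normalised counts of the 3 genes were 4044, 3945 and 4168 in vehicle, 4366, 3978 and 4184 at low dose, 4494, 4259 and 4357 at medium dose and 3920, 4037 and 3872 at high dose. The medium dose sums lay above those of vehicle, and the high dose sums overlapped them, while from vehicle to high dose the share of ATP5MC3 in them went from between 4.60% and 5.83% to between 2.45% and 2.78%.

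In the catalytic head of ATP synthase, ATP5F1A and ATP5F1B encode the alpha and beta subunits, which alternate in equal numbers around the head. ATP5F1A had normalised counts of 6448, 6146 and 6277 in vehicle, 6093, 6194 and 5779 at low dose, 5883, 5705 and 5552 at medium dose, and 5211, 5188 and 4971 at high dose. Its log2 fold change was -0.14 at the medium dose (adjusted p = 0.000375) and -0.30 at the high dose (adjusted p = 7.06e-17), with no overlap between vehicle and either. ATP5F1B had 10142, 10214 and 10023 in vehicle and 10378, 10599 and 10341 at the high dose. The vehicle libraries lay below those of the high dose, but the difference was small, at 0.04 (adjusted p = 0.0956). ATP5F1C, the gamma subunit that turns within the head, fell by 0.36 at the high dose (adjusted p = 1.56e-15) and 0.19 at the medium dose (adjusted p = 7.5e-05).

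The stalk subunits that hold the head still were mostly lower: ATP5PB at -0.36 (adjusted p = 4.2e-13), ATP5PF at -0.25 (adjusted p = 1.16e-05; 37.3% of exon bases overlap GABPA on the opposite strand) and ATP5PO at -0.20 (adjusted p = 1.37e-05), with ATP5PD at -0.09 not called. ATP5MF, a small membrane subunit, fell by 0.40 (adjusted p = 3.01e-17), and its read-through with PTCD1, which shares reads with it, stood at -0.37 (adjusted p = 0.018). ATP5ME, another small membrane subunit, was not called, at 0.09, and 61.3% of its exon bases overlap MYL5 on the opposite strand. ATP5IF1, the inhibitor that blocks ATP synthase from running backwards, had 1542, 1546 and 1590 in vehicle, 1609, 1524 and 1471 at low dose, 1434, 1355 and 1286 at medium dose, and 1163, 1170 and 1051 at high dose. The vehicle, medium and high dose libraries did not overlap. Its log2 fold change was -0.20 at the medium dose (adjusted p = 0.00266; 0.0532 without medium dose library 3) and -0.47 ± 0.06 at the high dose (SE; adjusted p = 6.14e-15).

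**Figure D2:**
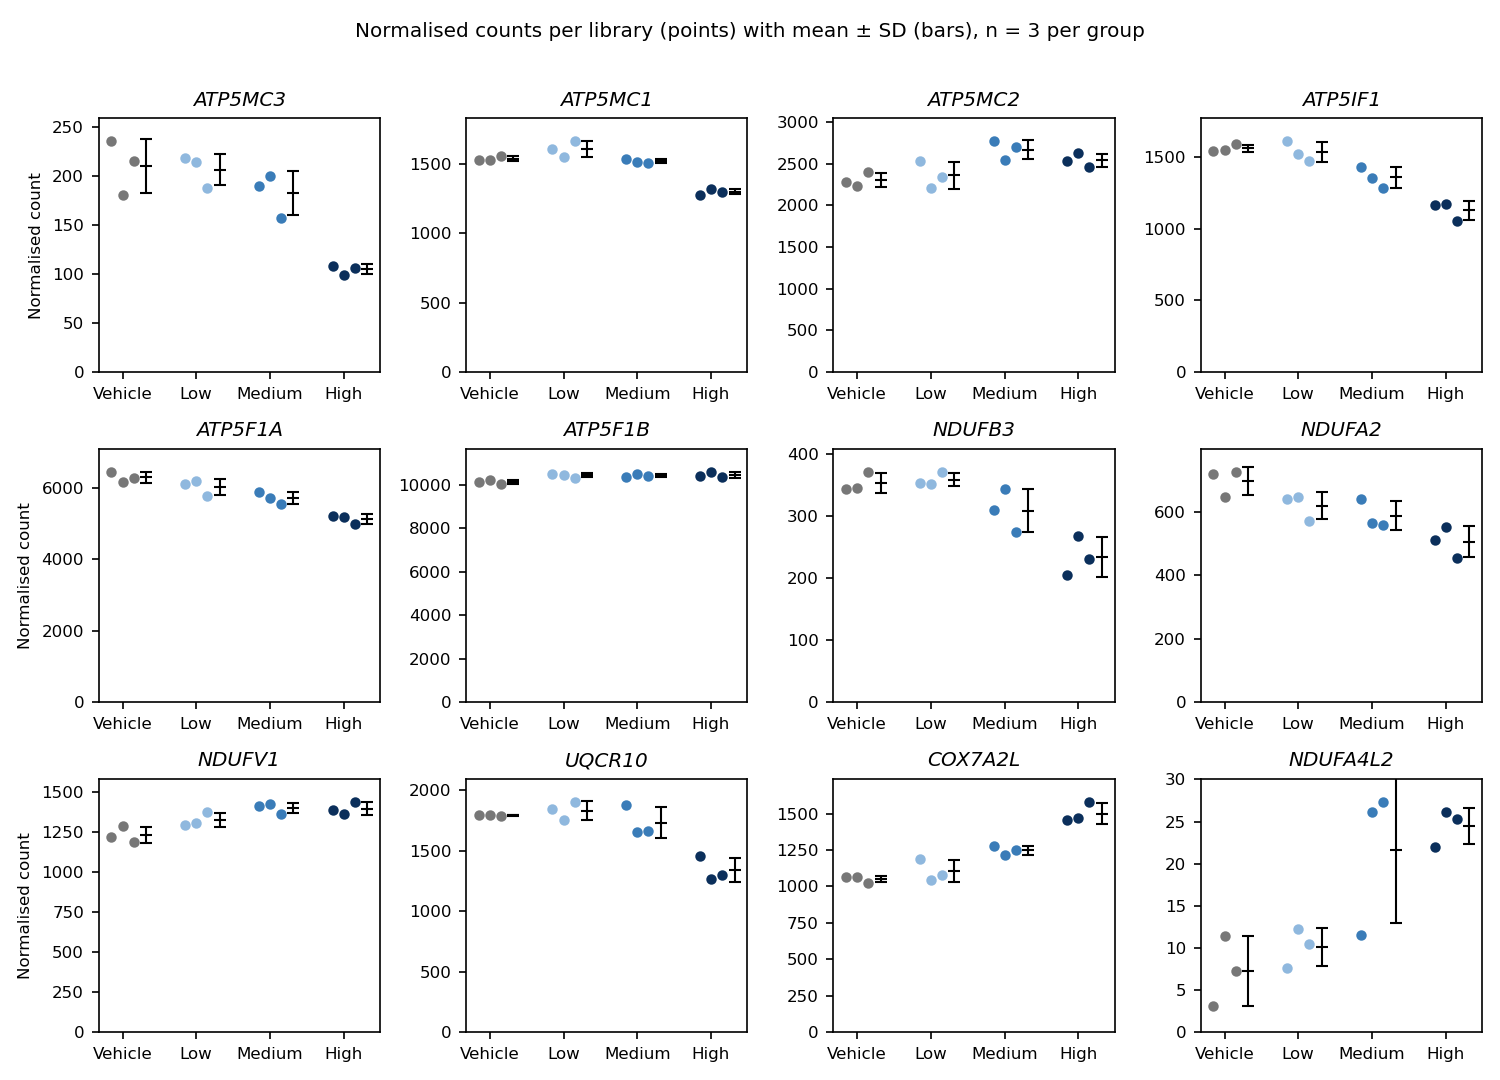
Normalised counts (y axes, from 0) of 12 members in every library, by group on the x axes; points are libraries and bars beside them give the mean ± SD over n = 3. ATP5MC3, ATP5IF1, NDUFB3 and UQCR10 are lowest at the high dose, COX7A2L is highest there, and ATP5F1B is nearly level; NDUFA4L2 rests on fewer than 30 normalised counts per library.

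The 13 subunits encoded by mitochondrial DNA, which join the nuclear-encoded ones in complexes I, III, IV and V, followed another pattern over the doses. At the low dose 7 of 13 were lower and 2 higher, beside 1.24% and 2.05% of all genes tested. At the medium dose 8 were lower and none higher, beside 14.5% and 15.1%. At the high dose 7 were lower and none higher, beside 22.6% and 23.9%. Median log2 fold changes at low, medium and high dose were -0.20, -0.50 and -0.23, beside 0.00, -0.03 and -0.14 for all members of the nuclear group. MT-CO2, a core subunit of complex IV, had normalised counts of 97613, 97553 and 98461 in vehicle, 82095, 72481 and 78868 at low dose, 55329, 54890 and 61102 at medium dose, and 67940, 64973 and 65988 at high dose. The medium dose was lowest, and no 2 groups overlapped. Between the high and medium doses 7 of the 13 were higher at the high dose and none lower, beside 21.1% and 19.8% of all genes tested. Of the nuclear-encoded members, 34 were lower there.

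The 2 that rose at the low dose were MT-ND1 and MT-ND2, neighbours on the mitochondrial genome, at 0.75 (adjusted p = 6.52e-06) and 0.70 (adjusted p = 6.09e-05). MT-ND1 had 50326, 47013 and 57074 in vehicle and 106804, 72133 and 81653 at the low dose, and 53280, 52961 and 55411 at the high dose. The mitochondrial ribosomal RNAs moved far more: MT-RNR2 had a mean normalised count of 174819 in vehicle, then 567253, 1404763 and 1025392 as the dose rose. Counts on chromosome M accounted for 5.03% to 5.29% of each vehicle library, 6.45% to 7.56% at the low dose, 10.6% to 10.8% at the medium dose and 9.00% to 9.29% at the high dose. With size factors taken without chromosome M, the number of nuclear-encoded members called lower at the high dose was 42 again. With plain library totals outside chromosome M as the scale, 56 were lower and 5 higher. The part of these RNAs in the changes of mitochondrially encoded mRNAs was not tested.

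**Figure D3:**
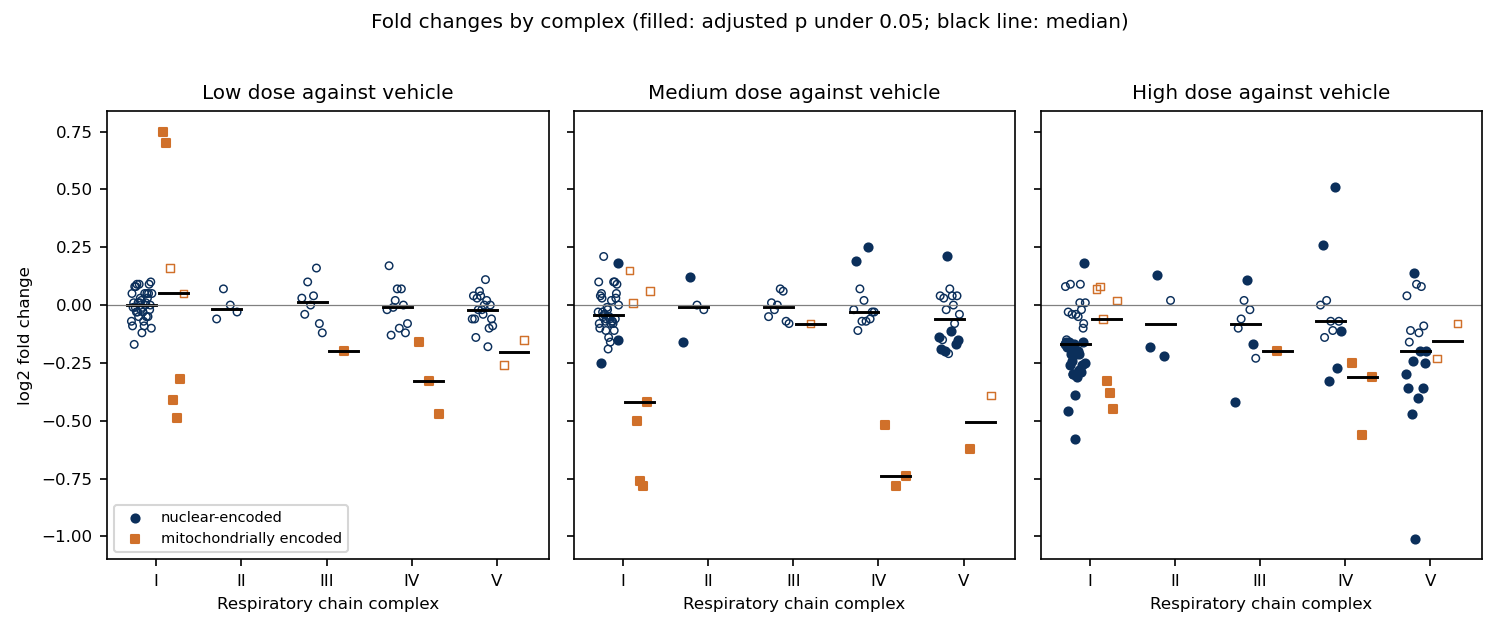
Log2 fold change against vehicle (y axis) at the 3 doses, by complex (x axis), for nuclear-encoded subunits with a mean of at least 100 (circles) and mitochondrially encoded subunits (squares); filled symbols have an adjusted p under 0.05 and black lines are medians. Nuclear-encoded subunits spread around 0 at the low and medium dose and sit mostly below 0 at the high dose. Over all 13 mitochondrially encoded ones, the median is lowest at the medium dose. MT-CYB, of complex III, is not, with mean normalised counts of 61289, 66732 and 61079 at low, medium and high dose.

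Summed over the members under its symbols, complex I held 51485 ± 283 normalised counts in vehicle and 47016 ± 1025 at the high dose. Complex V held 45276 ± 258 and 40685 ± 733 (SD, n = 3). These sums include the NDUFAF assembly factors in complex I and the read-through genes in complexes I and V. NDUFA4, a subunit of complex IV, is counted in complex I, as is NDUFA4L2. NDUFA4 had a mean of 3564 in vehicle and 3179 at the high dose. The sums of complex II were 7364 ± 55.1 and 6918 ± 119, those of complex III 18386 ± 440 and 17343 ± 651, and those of complex IV 20613 ± 142 and 19861 ± 452. Vehicle and high dose libraries did not overlap in the sums of each complex. At the medium dose the sums were 51059 ± 611 for complex I, 7219 ± 62.0 for complex II, 18258 ± 468 for complex III, 20568 ± 667 for complex IV and 44156 ± 600 for complex V. Those of complexes II and V lay below every vehicle library, and those of the other complexes overlapped vehicle. Of all counts outside chromosome M, members took 0.742% to 0.749% in vehicle, 0.731% to 0.751% at the low dose, 0.717% to 0.736% at the medium dose and 0.647% to 0.677% at the high dose.

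Members tend to be short, and the changes were set beside transcript length. Over 88 members with a mean of at least 100, Spearman's rho between canonical transcript length and the high dose log2 fold change was 0.22, as a description across genes, which are not independent; over 10727 protein-coding genes it was -0.01. Of 50 members under 1000 bases, 56% were lower, beside 31.1% of protein-coding genes of that length, and of 21 members of 2000 bases or more 47.6% were lower, beside 32.4%. Of 17 members between these lengths 23.5% were lower and 23.5% higher, beside 28% and 33.8%. Each member share rests on 4 genes, and the share called lower was near that of all protein-coding genes of such length. The corresponding rho for GC content was -0.02 for members and -0.01 for all.

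**Figure D4:**
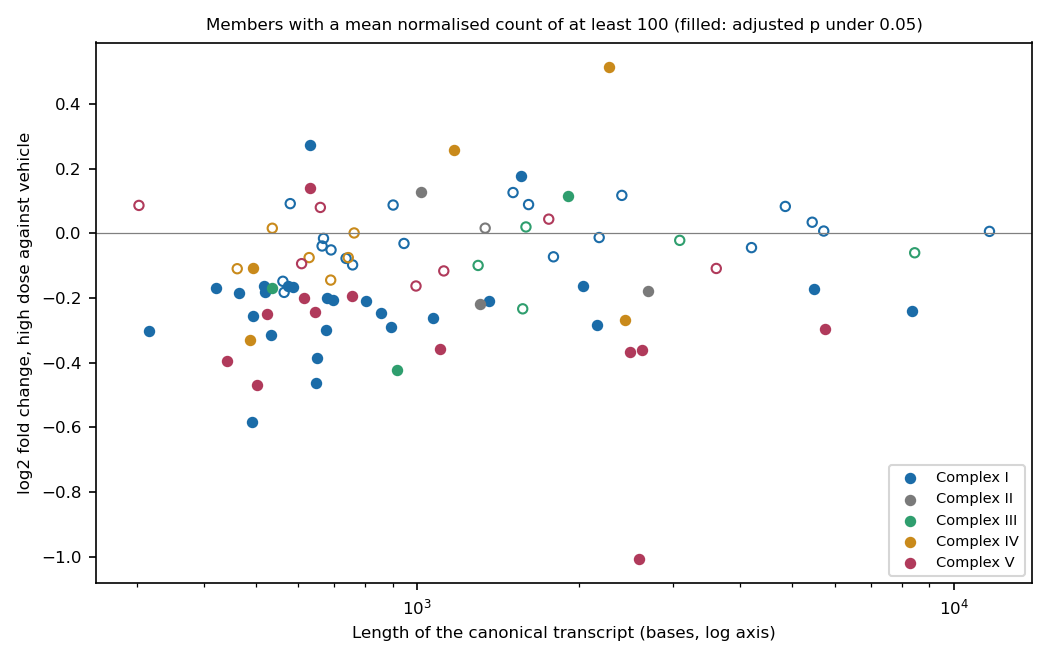
Log2 fold change at the high dose (y axis) against the length of the canonical transcript in bases (x axis, log scale) for the 88 members with a mean of at least 100, coloured by complex; filled points have an adjusted p under 0.05. Called members lie at all lengths, with ATP5MC3 lowest and COX7A2L highest.

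Assembly factors of the other complexes were mixed at the high dose, where 22.6% of all genes tested were lower and 23.9% higher. Of 9 for complex III, 3 were lower, with UQCC3 at -0.50, and 2 were higher, with TTC19 at 0.30. Of 26 tested for complex IV, 10 were lower and 6 higher, from COA5 at -0.54 to COX10, which acts in haem A synthesis, at 0.38. SDHAF4, which guards SDHA before assembly, was the sole member called of 4 for complex II, at 0.85 (adjusted p = 1.24e-05), with a mean of 84.4 in vehicle and 152 at the high dose. TMEM70, which helps to build the c-ring of ATP synthase, fell by 0.52 (adjusted p = 1.59e-09) and was the sole call of 4 for complex V. Of 16 electron carriers, quinone synthesis enzymes and subunits outside the rule, 5 were lower, with PDSS1, an enzyme that makes the tail of ubiquinone, at -0.77, and 4 higher.

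Enzymes of the citric acid cycle, which feed the chain, were also mixed. Of 18 listed besides complex II, 7 were lower and 4 higher at the high dose, beside 22.6% and 23.9% of all genes tested. The 18 had a median log2 fold change of -0.09. IDH2, the mitochondrial NADP-dependent isocitrate dehydrogenase, fell by 0.53 (adjusted p = 4.04e-31) and OGDH, of the oxoglutarate dehydrogenase complex, rose by 0.43 (adjusted p = 7.65e-35). Among 13 regulators of respiratory gene transcription tested, 3 were higher: ESRRA at 0.46, SP1 at 0.37 and YY1 at 0.23. Another 2 were lower: HCFC1 at -0.41 and TFAM, which packages mitochondrial DNA, at -0.29. Neither count was above the share of all genes tested. NRF1 and GABPA, whose motifs were searched above, were not called, at -0.13 (adjusted p = 0.33) and -0.03 (adjusted p = 0.752), and the coactivator PPARGC1A had a mean of 51.6 in vehicle and was not called, at 0.20 (adjusted p = 0.582).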

How the data were processed

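RNA of 12 SW1783 libraries in 4 groups, taken from the sample labels, was sequenced as paired ends. The authors checked reads with FastQC 0.11.9, trimmed them with Trim Galore 0.6.5, aligned them with STAR 2.7.3a to GRCh38 and counted with RSEM 1.3.3. These versions are those of the submitters' processing notes; the study's methods give others for Trim Galore and STAR. The authors deposited RSEM expected counts, in which a read that fits more than 1 gene is split among those genes. They were not normalised, and 8.75% were not whole. The libraries were strand-specific, while the strand setting of RSEM and poly(A) selection are not given in the sources used here.

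Expected counts were rounded to whole numbers. Symbols and coordinates (1-based) came from GENCODE release 44 of GRCh38, which held 93.2% of the IDs. The complex of each member was set from its symbol. DESeq2 1.42.0 in R 4.3.3 tested all genes with a two-sided Wald test, group as the sole term, all 12 libraries in the fit, and Benjamini-Hochberg adjustment after independent filtering at 0.05; edgeR 4.0.16 was an alternative. To normalise, each count was divided by its library's size factor from DESeq2. Total counts of 18863863 to 24200576 per library limit precision for members of low level. Every pair of replicates differed by more than counting noise (chi-square per degree of freedom 2.06 to 3.77), and all were kept. The fit was tested on simulated data.

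Members and lists were chosen with earlier results of these data known. Named with values were DEGs, the largest changes per complex, core subunits, isoform pairs and ATP5IF1; other members, the list genes, the length check and the motifs were chosen after values were seen. Promoter sequences came from RefSeq (GRCh38.p14). The labels' replicate numbers were tried as a block over all 12 libraries. Deviations from group means correlated at 0.124 to 0.193 between same-numbered medium and low dose libraries, and not above 0.1 throughout in any other pair of groups. Values of 1 member are not reported here, and it is left out of the heat map. SCO2 had no matching row and was left out of its list.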

Additional observations from a re-analysis of the deposited data

How the results depend on the processing

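Of the members named by rule, no log2 fold change past the threshold changed sign under any alternative, and 2650 of the values recomputed kept their direction and side of the threshold. Another 87, not called in either fit, changed sign, while 43 values lost the call and 17 gained it. The number called at the high dose was 50, and 55 by edgeR's quasi-likelihood test, 51 in the fit with a replicate block and 43 to 52 with 1 library left out. Against a null of 1.5-fold, 0 members passed in each comparison with calls (High dose vs Vehicle, Medium dose vs Vehicle, High dose vs Medium dose and Medium dose vs Low dose), higher, lower and DEGs alike; this test asks for a fold over 1.5 beyond its error. With library totals without chromosome M, 5 members were higher at the high dose in place of 8 and 10 were called between medium and low dose in place of 5. edgeR called 9 higher at the medium dose in place of 5 and 10 between medium and low dose. Between medium and low dose, 3 were called with no independent filtering, 3 with only the 2 groups compared and 2 with the replicate block. With 1 library left out, called members numbered 8 to 13 at the medium dose (5 to 9 lower, 3 to 6 higher), 0 to 1 at the low dose, 27 to 36 between high and medium dose and 1 to 5 between medium and low dose; at the high dose 37 to 45 were lower, 5 to 8 higher and 2 to 3 DEGs, and 41 to 48 differed among groups. The causes were not tested.

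No label says that a replicate number marks a shared batch. Correlations of deviations between same-numbered libraries ran from -0.118 to 0.221, and 6 of 12 libraries correlated best with their own number; medium and low dose were the one pair of groups with every same-numbered correlation over 0.1. With the replicate block, 11 members were called at the medium dose in place of 14 and 33 between high and medium dose in place of 35. Depth limits the members under a mean of 263 at the low dose, which had no adjusted p. It also limits NDUFA4L2, which had no adjusted p at the medium dose. NDUFA4L2 was called higher there by edgeR (adjusted p = 0.00332) and by DESeq2 with no independent filtering (0.0251). DESeq2 also called it with library totals outside chromosome M as the scale (0.0132), with the replicate block (0.0253) and without vehicle library 2 (0.0106).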
